A study of Mus musculus with 4 samples.

Results

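The 9 genes described here encode the enzymes that carry acetyl units through mevalonate to lanosterol, the sterol that is built first on the way to cholesterol. They were chosen by symbol in pathway order (Hmgcs1, Mvk, Pmvk, Mvd, Idi1, Fdps, Fdft1, Sqle and Lss) from the 18194 genes that had at least 1 probe set annotated with a single symbol. The thiolase and the reductase of the pathway are not analysed here. Liver RNA of mice at 10 months of age was measured on 4 arrays, 1 for each group. The groups were mice fed a control diet without other treatment, mice fed a diet with 0.2% cholic acid (CA), mice given diethylnitrosamine (DEN) and then the control diet, and mice given DEN and then the CA diet. DEN is a chemical that initiates liver tumours, and CA is a primary bile acid made from cholesterol. Each array held RNA pooled from 3 to 5 mice, so a group has 1 value, no difference could be tested and mouse-to-mouse variation is not known. For the strain, sex, DEN dose and tumour content of the pools the sources used here give nothing.

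The values are log2 expression values, on which a difference of 1 is 2-fold. The medians of the 4 arrays over all probe sets lay between 4.84 and 4.86. A gene was counted as expressed when its mean over the arrays reached 4.86, the median over all probe sets, and 11651 genes did so, all 9 enzymes among them. A level below this limit lies near the background of the array, and a fold against it was computed from the limit and is given as "at least". Of the hepatocyte markers, 7 of 8 were measured and all 7 were expressed, with median levels between 13.95 and 14.12 on the 4 arrays. Their summed level on the linear scale lay between 116989 and 121053. As a technical reference, the 18 probe sets of hybridization controls differed by at most 0.37 in the 5 comparisons of 2 arrays described here.

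The mevalonate pathway supplies sterols and also the isoprenoid units of ubiquinone, dolichol and prenylated proteins. In the liver its genes are known targets of the sterol regulatory element-binding proteins, transcription factors that are held back when membranes are rich in sterol and released when sterol is scarce. Farnesyl diphosphate, the product of Fdps, is the branch point, and Fdft1, Sqle and Lss act only in the sterol branch. Bile acids in food help cholesterol to be taken up from the gut and repress its conversion to bile acids.

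Promoters are shown because the 9 genes differed together between the diets, as described after them. RefSeq promoters of the GRCm38.p6 build were matched by symbol for 6 of the 9 genes (Hmgcs1, Mvk, Pmvk, Mvd, Idi1 and Lss), and the 250 bases before each annotated start site were searched on both strands. The letters searched were TCACNCCAC, a form of the sterol regulatory element, CCAAT, the box bound by NF-Y, and GGGCGG, the GC box of the Sp1 family. No 2 of these motifs share letters in the windows printed. 3 windows are printed, that of Hmgcs1 for its match to the sterol element, that of Idi1 for the largest diet difference without DEN among the 6 genes, and that of Mvk for the smallest. Capitals mark TCACNCCAC and also the CCAAT box, which reads as ATTGG where it lies on the other strand. Each sequence runs 5′ to 3′ on the strand of the gene, which is the plus strand for these 3.
Hmgcs1 (chr13:119690101-119690350): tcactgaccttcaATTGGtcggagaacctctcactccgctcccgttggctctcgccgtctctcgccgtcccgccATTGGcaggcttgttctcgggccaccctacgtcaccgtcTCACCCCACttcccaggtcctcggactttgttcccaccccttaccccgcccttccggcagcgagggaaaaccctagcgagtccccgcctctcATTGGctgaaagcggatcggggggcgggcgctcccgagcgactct
Idi1 (chr13:8885356-8885605): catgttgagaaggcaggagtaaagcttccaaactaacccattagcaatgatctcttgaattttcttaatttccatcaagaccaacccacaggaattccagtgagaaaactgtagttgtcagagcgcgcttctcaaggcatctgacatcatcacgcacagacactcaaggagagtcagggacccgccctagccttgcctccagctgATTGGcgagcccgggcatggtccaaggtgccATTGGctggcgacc
Mvk (chr5:114444019-114444268): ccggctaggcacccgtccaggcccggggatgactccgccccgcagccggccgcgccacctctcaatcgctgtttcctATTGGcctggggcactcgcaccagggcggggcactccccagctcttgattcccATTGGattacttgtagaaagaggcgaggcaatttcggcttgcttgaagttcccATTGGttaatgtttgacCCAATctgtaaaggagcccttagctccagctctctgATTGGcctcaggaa
Among the 6 genes, the sterol element form was matched only in Hmgcs1, beginning 137 bases before the start site, and 1.05% of all 32851 promoter windows of the same length held it. A gene was counted when any of its windows held a match, and Pmvk has 2 windows. CCAAT was matched in all 6 genes, though before only the first start site of Pmvk, and in 33.8% of all windows. It was matched at 2 or more places in Hmgcs1 (3 places), Mvk (5), Mvd (2) and Idi1 (2), against 10.1% of all windows. The GC box was matched in 5 of the 6 genes, all but Pmvk, and in 32.7% of all windows. Mvk, with the smallest diet difference of the 9 enzymes without DEN, held the most CCAAT boxes of the 6. A match describes letters in a window and does not show binding.

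**Figure D1:**
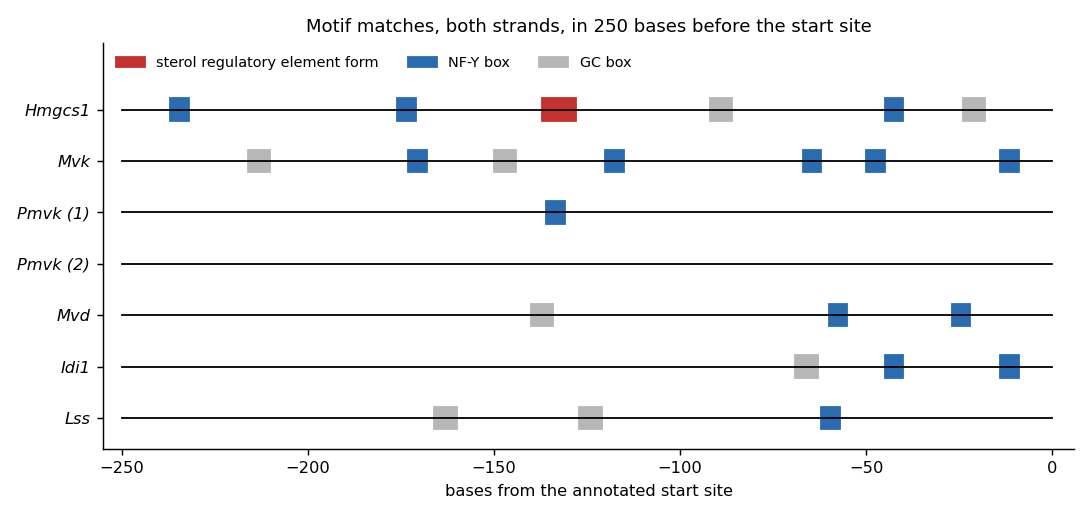
Positions of the motif matches on either strand in the 250 bases before the annotated start site of 6 genes, with 2 start sites for Pmvk. The x axis is the distance to the start site in bases. The sterol element form appears once, in Hmgcs1 at 137 bases before the start, and CCAAT boxes appear in every gene but at only the first of the Pmvk start sites.

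Without DEN, comparing CA-fed with control-fed mice asks how the pathway stands under a bile acid load alone. All 9 enzymes were lower in the CA pool, 8 of them by at least 2-fold, where 0.592% of all expressed genes were lower by that much. The median log2 difference was -2.15, against 0.015 over all expressed genes, and the central 95% of all expressed genes lay between -0.49 and 0.58. Sqle, Fdps, Idi1 and Hmgcs1 ranked 2, 5, 6 and 8 from the lowest of 11651 genes, and the 4 ranks were the same with levels under the limit raised to it. The weakest difference, that of Mvk, ranked 100. The sizes had no order along the pathway, with the largest differences at Sqle, near its end, and at Idi1 and Fdps, in its middle.

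Hmgcs1, the synthase that makes HMG-CoA at the entry, stood at 12.88 on the control diet, 10.00 on the CA diet, 12.76 after DEN on the control diet and 11.58 after DEN on the CA diet. Both CA pools were lower than both control-diet pools, and the CA pool without DEN was the lowest. The 3 other Hmgcs1 probe sets above the limit differed by -3.17, -2.86 and -3.03 between the diets without DEN, beside -2.88 for the one used. These 4 probe sets were designed on the same sequence entry and are not independent. The probe set used has the suffix x, which marks probes that can also bind other transcripts. The Fdft1 probe set used has the same suffix.

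Mvk, which puts the first phosphate on mevalonate, stood at 7.48, 6.65, 7.72 and 6.78 in the same order of arrays. Its diet difference without DEN was -0.83, or 1.78-fold lower, the smallest of the 9, and its other probe set differed by -0.36. Pmvk, which adds the second phosphate, stood at 8.98, 6.83, 8.86 and 7.69. It was 4.45-fold lower on the CA diet without DEN, so that the enzymes of successive phosphorylations differed in size of response, with a single probe set behind Pmvk. Mvd, the decarboxylase that yields isopentenyl diphosphate, stood at 6.84, 5.13, 7.13 and 6.26. Its level on the CA diet without DEN was close to the expression limit, and its difference was -1.71 on the probe set used and -1.95 on the other.

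Idi1, the isomerase that makes the allylic starter dimethylallyl diphosphate, stood at 11.97, 8.79, 11.75 and 9.80. Its other probe set, with levels of 11.08, 7.01, 10.75 and 8.62, had the larger diet difference without DEN, -4.07 against -3.18. Fdps, the synthase of farnesyl diphosphate, stood at 11.13, 7.78, 11.11 and 9.35. Both control-diet pools were alike for Fdps, within 0.021, and the 2 CA pools lay apart by 1.57. The other Fdps probe set was far under the limit on every array (1.98 to 2.22) and showed no such pattern.

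Fdft1, squalene synthase and the first enzyme that serves only sterols, stood at 11.26, 9.35, 11.29 and 9.58. It was 3.76-fold lower on the CA diet without DEN, and the probe set next in level gave -1.98 beside -1.91. The 2 other Fdft1 probe sets, with levels from 4.88 to 5.35, differed by 0.105 and 0.087. Sqle, squalene epoxidase, stood at 9.87, 4.69, 10.24 and 9.06 on its only probe set. The CA pool without DEN was below the expression limit for Sqle while the other 3 pools lay well above it. Lss, which closes the rings of lanosterol, stood at 8.67, 6.79, 9.45 and 7.99, and was 3.67-fold lower on the CA diet without DEN. Its probe set next in level gave -2.17, and the third, near the limit, -0.65.

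**Figure D2:**
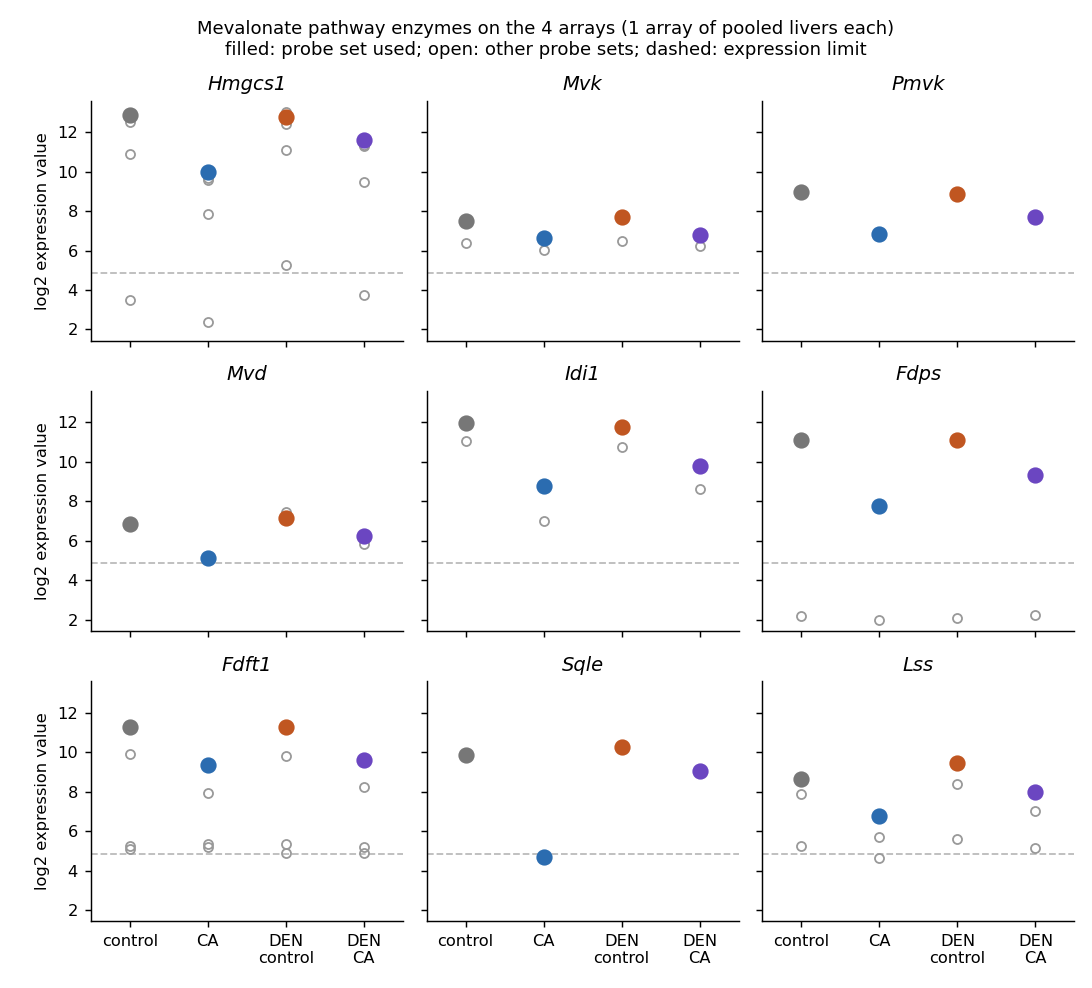
Log2 expression values (y axis) of the 9 enzymes on the 4 arrays (x axis, 1 array of pooled livers for each group). Filled points are the probe set used for a gene, open points its other probe sets, and the dashed line is the expression limit of 4.86. In each panel the filled point of the CA diet without DEN is the lowest and that of DEN with CA diet the next, and Sqle alone crosses the limit.

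The order of the 4 arrays was the same for each of the 9 enzymes at the low end, the CA pool without DEN lowest and the pool of DEN with CA diet next. This order was looked at after the values were seen, and it held for 5.46% of all expressed genes. The high end had no common order, since DEN with control diet was above the untreated control for 5 enzymes and below it for 4.

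After DEN, the CA diet against the control diet again went with lower levels of all 9 enzymes, 7 of them by at least 2-fold against 0.472% of all expressed genes. The median log2 difference was -1.18, beside -0.022 over all expressed genes. Idi1 (-1.95), Fdps (-1.77), Fdft1 (-1.70) and Lss (-1.47) had the largest differences and ranked 5, 11, 12 and 17 from the lowest. Hmgcs1 and Sqle were both at -1.18 and Pmvk at -1.17. Mvk and Mvd were 1.91-fold and 1.83-fold lower and so just outside 2-fold, while the other Mvd probe set gave -1.60. The 7 enzymes that were at least 2-fold lower after DEN were so without DEN too, as were 0.24% of all expressed genes. Both diet comparisons share no array.

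**Figure D3:**
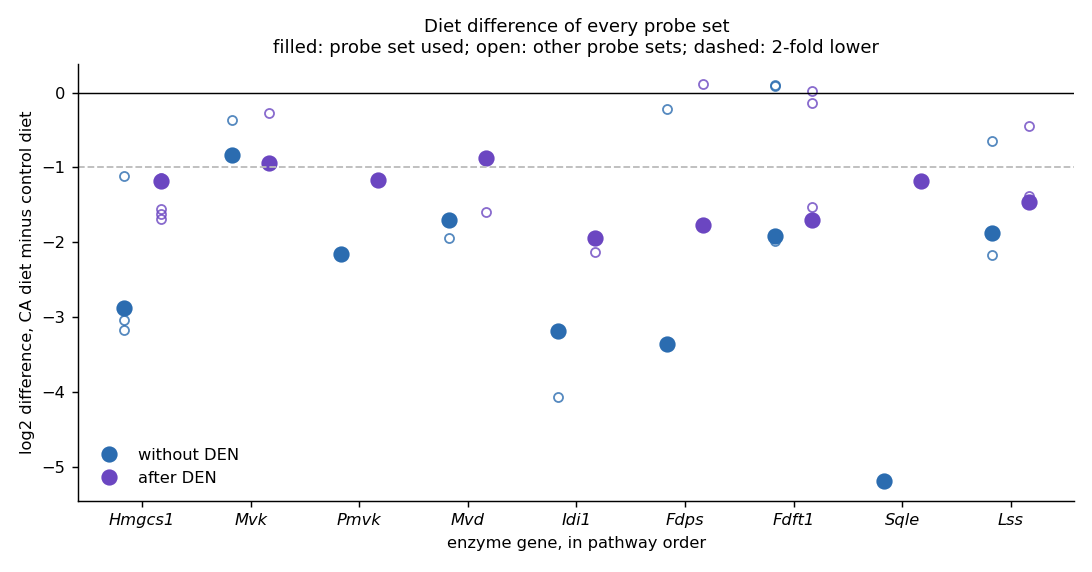
Log2 difference between CA and control diet (y axis) for every probe set of the 9 enzymes in pathway order (x axis), without DEN and after DEN. Filled points are the probe sets used, open points the others, and the dashed line marks 2-fold lower. The filled points spread from -5.19 (Sqle, -5.02 from the limit) to -0.83 without DEN and from -1.95 to -0.87 after DEN, and open points near 0 belong to probe sets near or under the expression limit or, at -0.27 and -0.36, to Mvk.

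**Figure D4:**
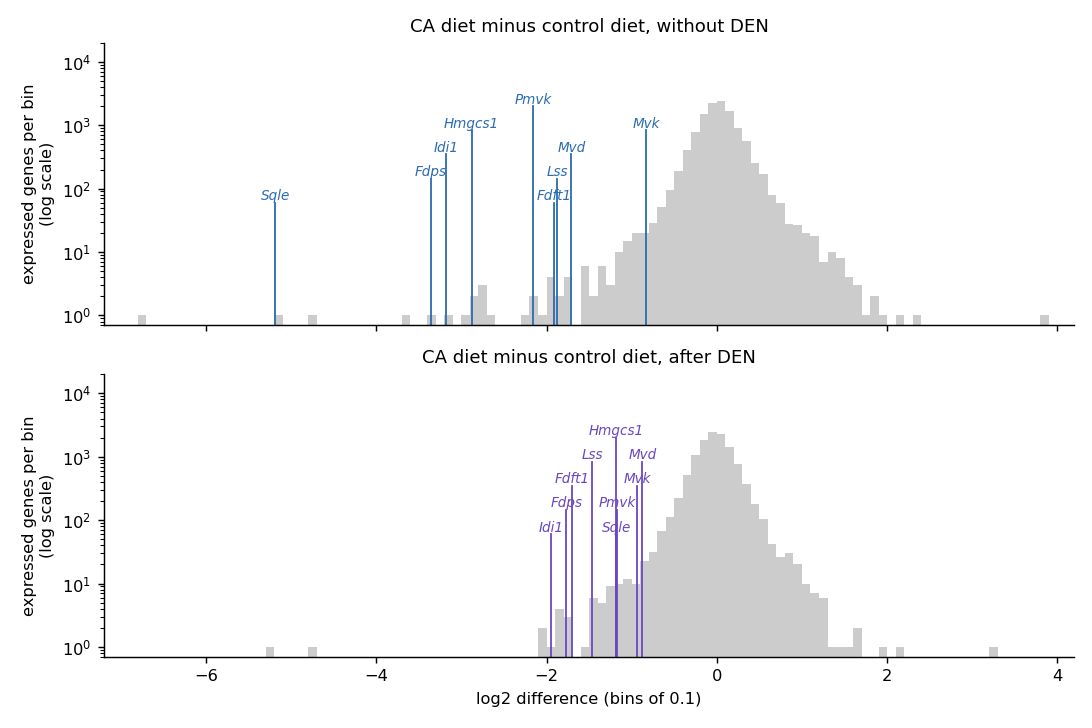
Number of expressed genes (y axis, log scale) in bins of the log2 difference between CA and control diet (x axis), without DEN above and after DEN below. Vertical lines mark the 9 enzymes, and their height only makes room for the names. Without DEN, 8 lines lie left of -1, and the line of Mvk lies at -0.83. After DEN, 7 lines lie left of -1.

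The diet differences were less alike in size without DEN than after it. For each enzyme the difference after DEN minus that without DEN was computed, a positive value meaning a smaller reduction after DEN. It was positive for 8 of the 9 enzymes, with a median of 0.99 against -0.042 over all expressed genes, and 4 enzymes reached 1 or more against 0.438% of all expressed genes. The hybridization controls reached an absolute value of 0.57 for this quantity. Lss (0.41), Fdft1 (0.21) and Mvk (-0.10) lay within that size. Sqle had the highest value of all 11651 genes, 4.01, or 3.84 when its level near background was raised to the limit. Hmgcs1 (1.70), Fdps (1.59) and Idi1 (1.23) ranked 10, 12 and 31 from the highest. The other Hmgcs1 probe sets above the limit gave 1.47, 1.73 and 1.41, and the other Idi1 probe set 1.94.

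Expressed as a share of the log2 difference without DEN, the difference after DEN came to 22.7% for Sqle (23.5% from the limit), 41.0% for Hmgcs1, 51.1% for Mvd, 52.6% for Fdps and 54.2% for Pmvk. It came to 61.3% for Idi1, 78.2% for Lss, 89.1% for Fdft1 and 113% for Mvk. The shares depended on the probe set, with 82.0% for Mvd and 73.4% for Mvk on their other probe sets, 52.3% on that of Idi1 and 39.6% to 53.5% on the other Hmgcs1 probe sets above the limit. On the probe sets used, Fdft1 and Mvk had nearly equal diet differences in both settings, at -1.91 and -1.70 for Fdft1 and -0.83 and -0.94 for Mvk. In the sterol branch, Sqle lay at the low end of these shares on its only probe set, and its neighbours Fdft1 and Lss lay higher. On the probe sets next in level the shares were 77.0% for Fdft1 and 63.6% for Lss. The third Lss probe set, near the limit, gave 68.2%. The place of Lss among the 9 enzymes thus depended on the probe set. With 1 pool for each group, whether these values differ beyond the spread between mice could not be tested.

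**Figure D5:**
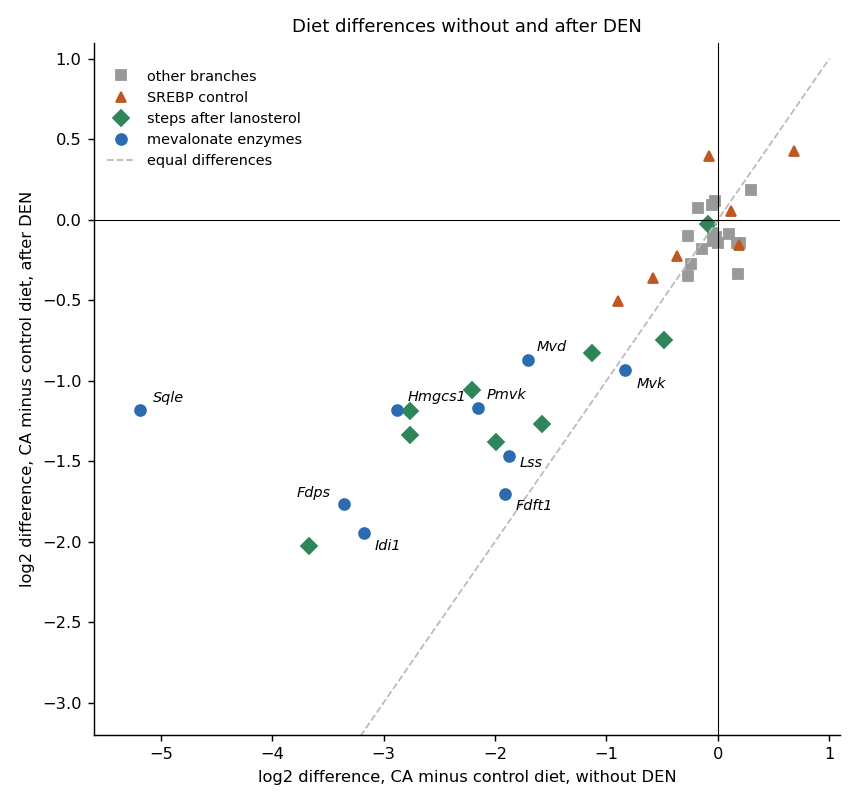
Log2 difference between CA and control diet without DEN (x axis) and after DEN (y axis) for the expressed members of 4 gene lists. The dashed line marks equal differences. Mvk and Fdft1 lie close to the line, Sqle lies farthest from it at -5.19 (-5.02 from the limit) and -1.18, and genes of the other branches lie around 0.

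Among control-fed mice, the DEN pool beside the untreated one shows the state of the pathway after the carcinogen alone. No enzyme differed by 2-fold. Of all expressed genes, 5.12% were at least 2-fold higher, and the share at least 2-fold lower is not given here. For 9 enzymes a count of 0 higher lies near that share, so it does not set the pathway apart from other genes. The median over the 9 enzymes was 0.029, beside 0.035 over all expressed genes. Lss was 1.72-fold higher (0.79, with 0.53 and 0.33 on its other probe sets), and Sqle differed by 0.37. The other 7 lay between -0.22 and 0.29.

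Among CA-fed mice the values differed more. All 9 enzymes were higher after DEN, 6 of them by at least 2-fold against 4.75% of all expressed genes. Sqle was at least 18.5-fold higher and ranked 22 from the highest, or 17 with levels under the limit raised to it. Hmgcs1 was 2.99-fold higher, Fdps 2.97-fold, Lss 2.29-fold, Mvd 2.19-fold and Idi1 2.02-fold. Pmvk was 1.82-fold higher, and Fdft1 and Mvk differed by 0.24 and 0.13. Mvd was 1.77-fold higher on its other probe set, of nearly the same level, and so not past 2-fold there. This comparison shares 1 array with each of the diet comparisons. Beside the higher enzymes, macrophage markers were higher in 6 of 6 and endothelial markers in 5 of 5 measured genes. Cholangiocyte markers were higher in 4 of 5 and stellate cell and fibroblast markers in 4 of 6, with Dcn (-0.22) and Lrat (-0.39) lower. The median over all expressed genes was 0.004, so a gene was about as often higher as lower. Medians over expressed markers were 0.35 for macrophage, 0.48 for endothelial and 0.27 for stellate cell and fibroblast markers. The 2 expressed cholangiocyte markers, Sox9 (1.53) and Epcam (0.11), had a median of 0.82, against 0.11 over the 5 measured. Summed levels on the linear scale went from 2861 to 4010 for macrophage markers, from 1259 to 1763 for endothelial, from 128 to 203 for cholangiocyte and from 2574 to 2910 for stellate cell and fibroblast markers. Hepatocyte markers had a median of 0.012, with 4 of 7 measured genes higher and values from -0.48 to 0.30. The part of these cells in the higher enzyme levels was not tested.

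DEN with CA diet against neither treatment left all 9 enzymes below the untreated control, 5 of them by at least 2-fold against 2.2% of all expressed genes. Idi1 (-2.17), Fdps (-1.79), Fdft1 (-1.67), Hmgcs1 (-1.30) and Pmvk (-1.29) made up the 5. Sqle (-0.81), Mvk (-0.70), Lss (-0.68) and Mvd (-0.58) lay nearer to the control, although the other Mvd probe set, at -1.12, was past 2-fold. The median was -1.29, beside 0.012 over all expressed genes.

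The steps that follow lanosterol had diet differences of like size. Of 9 measured genes, all expressed, 7 reached 2-fold lower in the CA pool without DEN and 6 in that after DEN, against 0.592% and 0.472% of all expressed genes, with medians of -1.99 and -1.19. Msmo1, the sterol methyl oxidase, differed by -3.67 and -2.03. Cyp51, the lanosterol demethylase, differed by -2.76 and -1.19, and Nsdhl, which acts in the same demethylation, by -2.76 and -1.34. Dhcr7, the reductase of a late step, differed by -2.21 and -1.06, and Hsd17b7, a ketosteroid reductase, by -1.99 and -1.38. The 2 that did not reach 2-fold without DEN were Ebp, a sterol isomerase, at -0.48 and -0.75 and Lbr, a sterol reductase of the nuclear envelope, at -0.090 and -0.028; both are named after their values were seen.

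Other branches draw farnesyl diphosphate away from sterols. Of 16 measured genes of isoprenoid chains and protein prenylation, none was 2-fold different on the CA diet without or after DEN, with medians of -0.035 and -0.12. A count of 0 lies near the background, since 0.592% of all expressed genes were at least 2-fold lower and 0.661% higher without DEN, and 0.472% and 0.266% after it. The range without DEN ran from -0.27 to 0.30. Its ends were Pdss2, a subunit of the synthase of the ubiquinone side chain, and Srd5a3, the polyprenol reductase of dolichol synthesis. Fnta, a subunit shared by some of the protein prenyltransferases, differed by -0.24 and -0.27.

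Of the 7 measured genes that control the pathway, none was 2-fold different on the CA diet without or after DEN, a count that again lies near these shares, with medians of -0.080 and -0.16. Insig1, which holds the precursor of the transcription factors in the endoplasmic reticulum, differed by -0.90 and -0.51. Scap, their escort to the Golgi, differed by -0.58 and -0.36, and Srebf2, the factor that mainly drives sterol synthesis, by -0.37 and -0.22. Srebf1, whose products mainly drive fatty acid synthesis, lay on the other side at 0.68 and 0.43. For DEN against no DEN on the CA diet, 1 of the 7, Insig2, was at least 2-fold higher (1.46), against 4.75% of all expressed genes. Insig2 differed by 0.98 for DEN on the control diet, and by -0.080 and 0.40 between the diets. It is named after its values were seen. Of the mitochondrial enzymes that handle acetoacetyl-CoA and ketone bodies, 3 of 6 genes were measured. Their diet differences without DEN were -0.35 for Acat1, 0.10 for Bdh1 and 0.18 for Oxct1.

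Genes outside the 9 were ranked by likeness to the median pattern of the enzymes, as the distance over the 4 arrays between values centred on each gene's mean. The 6 nearest expressed genes were Csad (0.27), Nsdhl (0.31), Rdh11 (0.34), Paqr9 (0.54), Dnase2a (0.59) and Cyp51 (0.59). Csad, the decarboxylase of taurine synthesis, stood at 10.71, 8.71, 10.77 and 9.63 on the arrays in the order used above. Rdh11, a retinol dehydrogenase, stood at 9.36, 6.68, 9.43 and 8.19. Dnase2a encodes the lysosomal DNase, and Paqr9 a membrane protein of the progestin and adipoQ receptor family. The enzymes themselves lay between 0.25 (Pmvk) and 2.72 (Sqle) from their own median pattern, so Sqle was the least typical of the 9.

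In bulk liver, fewer cells of a type and less RNA per cell cannot be told apart. Hepatocyte markers had median diet differences of 0.045 without DEN and 0.014 after DEN, and their lowest values were -0.055 and -0.12. Macrophage markers moved the other way from the enzymes. All 6 were measured and all 6 were higher on the CA diet both without and after DEN, with medians of 0.70 and 0.64. Their summed level on the linear scale was 1758 on the control diet, 2861 on the CA diet, 2442 after DEN on the control diet and 4010 after DEN on the CA diet. The part of macrophages in the lower enzyme levels was not tested. Stellate cell and fibroblast markers (6 of 6 measured) had median diet differences of 0.091 and -0.044, and endothelial markers (5 of 5 measured, 4 expressed) 0.11 and 0.20. Of 5 measured cholangiocyte markers, 2 were expressed, with median diet differences of 0.27 and 0.46. Over the 5 measured the medians were 0.30 and 0.32, with 5 higher on the CA diet without DEN and 3 after DEN.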

How the data were processed

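The deposited log2 expression values came from RMA, run in Partek 6.5 according to the submitters' processing notes, with options that the sources used here do not give. RMA makes the arrays' distributions alike, so a change of most genes one way would be removed. Total RNA was isolated with Trizol and labelled with the FlashTag Biotin HSR kit, per the labels' protocols. That kit is better known from microRNA arrays, and its use on this expression array is not explained in the sources used here.

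Of 45101 probe sets, 34958 had 1 symbol in the platform annotation, 932 had several and 9211 are unnamed here. For a gene with several, the probe set of highest 4-array mean was used; the 9 enzymes had 22 probe sets, all shown or counted, and their symbols matched RefSeq by gene identifier. Differences were computed with pandas 2.3.3 on Python 3.11.15 as plain subtractions, with a difference counted from 2-fold on. With 1 array for each group no test was made. The steps were tested on simulated data. The number of arrays limits the precision.

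The members, lists and rule for named genes were chosen with earlier results of these data known. The rule names all 9 members, up to 5 genes of each list with the largest diet difference without DEN, and the 6 genes nearest in pattern. Scaling and probe set alternatives are given at the end. Listed genes without a probe set of 1 symbol are not analysed here.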

Additional observations from a re-analysis of the deposited data

Results flagged for a closer look

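The difference between DEN and no DEN had opposite signs on the control and CA diets for 4 enzymes. On the control diet it was -0.12 for Hmgcs1, -0.12 for Pmvk, -0.22 for Idi1 and -0.021 for Fdps, and on the CA diet 1.58, 0.86, 1.01 and 1.57. The second minus the first is the same quantity, from the same 4 arrays, as the difference between the diet effects given above. It came to 1.70 for Hmgcs1, 0.99 for Pmvk, 1.23 for Idi1 and 1.59 for Fdps. The difference was not tested, since each value rests on 1 array for each group. For Hmgcs1 the sign on the control diet depended on the probe set, at 0.27 and 0.18 on 2 of the 3 others above the limit, and for Idi1 it was negative on both probe sets. In the comparison on the control diet the hybridization controls differed by up to 0.20.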

How the results depend on the processing

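Each array is a single pool, so no replicate could be left out, and no detection call limits the values near background. No paired analysis was possible because each group has 1 array. Quantile normalization, centring of the arrays on the median of expressed genes and raising values to the limit left every count of enzymes within 1.5 times. They also left every median within the median absolute difference of all expressed genes. These settings could change little. RMA had already made the arrays' distributions alike, and only Sqle in the CA pool without DEN lay under the limit. Leaving out the expression filter could change no count, since all 9 enzymes passed it. A filter at the upper quartile, which drops Mvd, kept the counts within 1.5 times, but the medians, added after seeing the data, were -2.52 for the diets without DEN and -1.32 after DEN. The mean over all probe sets of a gene, which brings in probe sets near background, gave 3 enzymes at least 2-fold lower for DEN with CA diet against neither, with a median of -0.88, and a median of -1.83 for the diets without DEN. From 1.5-fold on, 8 enzymes were lower for DEN with CA diet against neither and 1 (Lss) higher for DEN on the control diet. Means in place of medians were -2.56 for the diets without DEN, -1.36 after DEN and 1.21 for the difference between them. For differences of 2-fold or more, the sign turned on single other probe sets near or under the limit: for Hmgcs1 to 0.23 (DEN with CA diet against neither) and -0.44 (difference between the diet effects), for Fdps to 0.12 (diets after DEN) and 0.033 (DEN with CA diet against neither), and for Fdft1 to 0.105 and 0.087 (diets without DEN) and 0.017 (diets after DEN). Smaller differences also turned: for Mvk the difference between the diet effects went from -0.105 to 0.097 on a probe set well above the limit, and for Fdft1 it went from 0.21 to -0.24 and -0.070, and DEN on the CA diet from 0.24 to -0.12 and -0.27. The cause was not tested.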
